A study of Mus musculus with 8 samples.

Results

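The 45 genes compared here act when a cell passes from G2 into mitosis, builds its spindle and divides, and they were chosen by gene symbol, from a list drawn up with earlier results of these data known. All 45 were present among the 31894 genes with an identifier in the count table, and all 45 were among the 13598 genes with enough counts to be tested. The lowest count of any of them in a library was 45, for Foxm1. Tumor cells were sorted from breast cancer brain metastases (BCBM) of 4 mice, which the labels number 57, 58, 67 and 70, and their mRNA was sequenced in bulk. Each mouse gave 1 library of E-cadHI cells and 1 library of E-cadLO cells, so each group held 4 libraries and every E-cadLO library had an E-cadHI library from the same mouse to be set against. The recipients were wild type FVB mice. In both groups the tumor cells descended from PyMT E-cad-mCFP mice, in which the mouse mammary tumor virus promoter drives the polyoma middle-T oncogene in mammary epithelium and the adhesion protein E-cadherin is fused to the fluorescent protein mCFP. E-cadHI cells were collected as mCFP positive and E-cadLO cells as mCFP negative, and the labels name no treatment and no age for either group. The tumors grew from organoids of a tumor that had been passed serially through mouse brains, so the mice share a tumor origin. The study checked purity by flow cytometry for the mCFP positive fraction only, and reports imaging of both sorted fractions.

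Total counts ranged from 9102781 to 15769200 per library. Expression is given as normalized CPM, the counts of a library scaled to its total (CPM) after TMM normalization, and 3 counts, taken as the floor of detection, corresponded to 0.190 to 0.330 CPM. Cdh1, which encodes E-cadherin, had a log2 ratio of E-cadLO to E-cadHI of -0.66, 0.46, -0.15 and -0.86 in mice 57, 58, 67 and 70, so the mRNA of the sorted protein was lower in the E-cadLO library of 3 mice and higher in that of mouse 58. Summed over 12 tumor epithelial markers, E-cadHI libraries held 7624 to 10326 CPM and E-cadLO libraries 5663 (mouse 57) to 14137 CPM (mouse 67). Genes that mark cells of the host brain were present in both groups and mostly higher in E-cadLO libraries. The summed level of 14 microglia and macrophage markers was 38.8 to 298 CPM in E-cadHI and 247 to 1071 CPM in E-cadLO libraries, and the log2 fold change of all 14 was above 0. The sums over 8 genes each were 191 to 1399 against 634 to 5095 CPM for astrocytes, 605 to 8631 against 1338 to 34351 CPM for oligodendrocytes, 30.6 to 127 against 49.1 to 410 CPM for neurons, 41.1 to 75.5 against 55.4 to 97.8 CPM for endothelial cells and 9.10 to 62.8 against 26.4 to 1197 CPM for fibroblasts and mural cells. Lymphocyte markers summed to 0.07 to 1.92 against 0 to 10.1 CPM, with none of 8 abundant enough to be tested, and neutrophil markers to 15.7 to 24.8 against 6.52 to 25.5 CPM. No marker of any list was at 0 in all 8 libraries. The mouse 70 libraries had the highest oligodendrocyte marker sums of their groups, and the E-cadLO library of mouse 57 had the highest fibroblast and mural marker sum. The study describes E-cadLO tumor cells as mesenchymal. In bulk libraries, fibroblast and mural markers from host cells and from such tumor cells cannot be told apart. The part of host cells in the results below was not tested.

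As background, entry into mitosis is set off when cyclin B accumulates on the kinase Cdk1 and Cdc25 phosphatases remove its inhibitory phosphates. Aurora and Polo-like kinases then mature the centrosomes, kinesin motors and microtubule-binding proteins shape the bipolar spindle, and kinetochores attach chromosomes to it while the checkpoint kinases watch for unattached ones. Once all are attached, Cdc20 activates the anaphase-promoting complex (APC/C), which destroys cyclin B and securin, separase opens cohesin, and the central spindle and an actin ring part the daughter cells. Many of these mRNAs are made mainly in G2 and M, and in tumors their level is widely read as a measure of how many cells are cycling.

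No mitotic gene passed an adjusted p under 0.05 between E-cadLO and E-cadHI cells in edgeR's quasi-likelihood test, 0 of 45 in either direction, beside 0.0% of the 13598 genes tested higher and 0.0% lower. The smallest adjusted p of a member was 0.253, for Cdk1. At an unadjusted p under 0.05, 2 members were higher in E-cadLO (Anln and Ndc80), where 8.16% of all tested genes were higher, and 6 were lower (Cdk1, Aurkb, Spc25, Ube2c, Ccnb1 and Mad2l1), where 5.81% of all were lower. When a replicate block for the mouse was added, edgeR again called 0 members in either direction, beside 0.728% of all genes higher and 0.0% lower, and the smallest member adjusted p was 0.143. DESeq2, the test that the study's methods name, called 1 member lower, Cdk1 (adjusted p = 0.0200), beside 0.426% of genes lower. It called 0 members higher, beside 2.22% of genes higher. DESeq2 with the replicate block called 2 members lower, Cdk1 (adjusted p = 0.0257) and Aurkb (adjusted p = 0.0363), beside 1.63% of genes lower, and 0 members higher, beside 7.57% of genes higher. The median log2 fold change of the 45 members, E-cadLO over E-cadHI, was -0.10 (range -0.68 to 0.59), with 18 above 0 and 27 below, and the median of all tested genes was 0.06. When libraries were scaled to the tumor epithelial markers in place of TMM, the median of all genes shifted by 0.13, to 0.20, and that of the members changed sign to 0.08, which relative to all genes was -0.12 in place of -0.16. With the replicate block added to that scaling, the median of the members was -0.0068. The markers include Cdh1, whose protein was the basis of the sort, so this scaling is not independent of the groups compared. These are bulk libraries, in which fewer cycling cells and less mRNA per cycling cell cannot be told apart.

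Summed, the levels of the mitotic genes overlapped between the populations. The 45 genes together made up 0.493%, 0.499%, 0.585% and 0.404% of the counts in the E-cadHI libraries of mice 57, 58, 67 and 70, and 0.617%, 0.403%, 0.487% and 0.402% in their E-cadLO libraries. The 95% Wilson intervals of these shares, which cover counting error only, were narrow, for example 0.490% to 0.497% in E-cadHI cells and 0.612% to 0.621% in E-cadLO cells of mouse 57. After TMM scaling the summed level was 5113, 4974, 5823 and 4199 CPM in E-cadHI libraries (5027 ± 665, SD, n = 4) and 5173, 4256, 4682 and 4412 CPM in E-cadLO libraries (4631 ± 402, SD, n = 4). The groups overlapped, and the spread among the 4 E-cadHI libraries was wider than the gap between the means. Set against the summed epithelial markers of the same library, the ratio of mitotic to epithelial CPM was 0.495, 0.652, 0.570 and 0.462 in E-cadHI and 0.913, 0.459, 0.331 and 0.551 in E-cadLO cells. It was thus higher in E-cadLO cells of mice 57 and 70 and lower in those of mice 58 and 67.

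The mice differed in direction. The median log2 ratio of E-cadLO to E-cadHI over the 45 genes was 0.11, -0.26, -0.24 and 0.12 in mice 57, 58, 67 and 70, where the medians of all tested genes lay between 0.00048 and 0.066. Of the 45 genes, 23, 6, 9 and 28 were higher in the E-cadLO cells of these mice. Within the E-cadHI group, mouse 70 had the lowest level of 33 of the 45 genes and mouse 67 the highest level of 26, and within the E-cadLO group, mouse 57 had the highest level of 24. For 29 of the 45 genes the direction differed between mice. This was also so for most tested genes, since 16.8% of all were higher and 14.2% lower in 4 of 4 mice. Of the members, 3 were higher in E-cadLO cells in 4 of 4 mice (Nek2, Bub1 and Anln), beside that 16.8% of all genes. Another 13 were lower in 4 of 4 mice (Cdk1, Ccna2, Ccnb1, Cdc25b, Aurkb, Bub3, Mad2l1, Cenpa, Spc24, Spc25, Kif4, Ube2c and Pttg1), beside 14.2% of all genes. In 7 of these 13 (Cdk1, Ccnb1, Aurkb, Mad2l1, Spc24, Spc25 and Ube2c) all 4 E-cadLO libraries lay below all 4 E-cadHI libraries, as in 4.2% of all genes, and for 0 members did all E-cadLO libraries lie above, as in 3.9% of all genes. Epithelial scaling moves all genes of a mouse together, and under it 0 members were higher in 4 of 4 mice, beside 11.5% of all genes, and 2 were lower (Cdk1 and Mad2l1), beside 7.5% of all genes. The plot of within-mouse ratios by gene shows these patterns. The SD of the ratio over the 4 mice had a median of 0.38 over the members and 0.49 over all tested genes, and was smallest for Aurkb (0.13) and largest for Foxm1 (1.01).

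**Figure D1:**
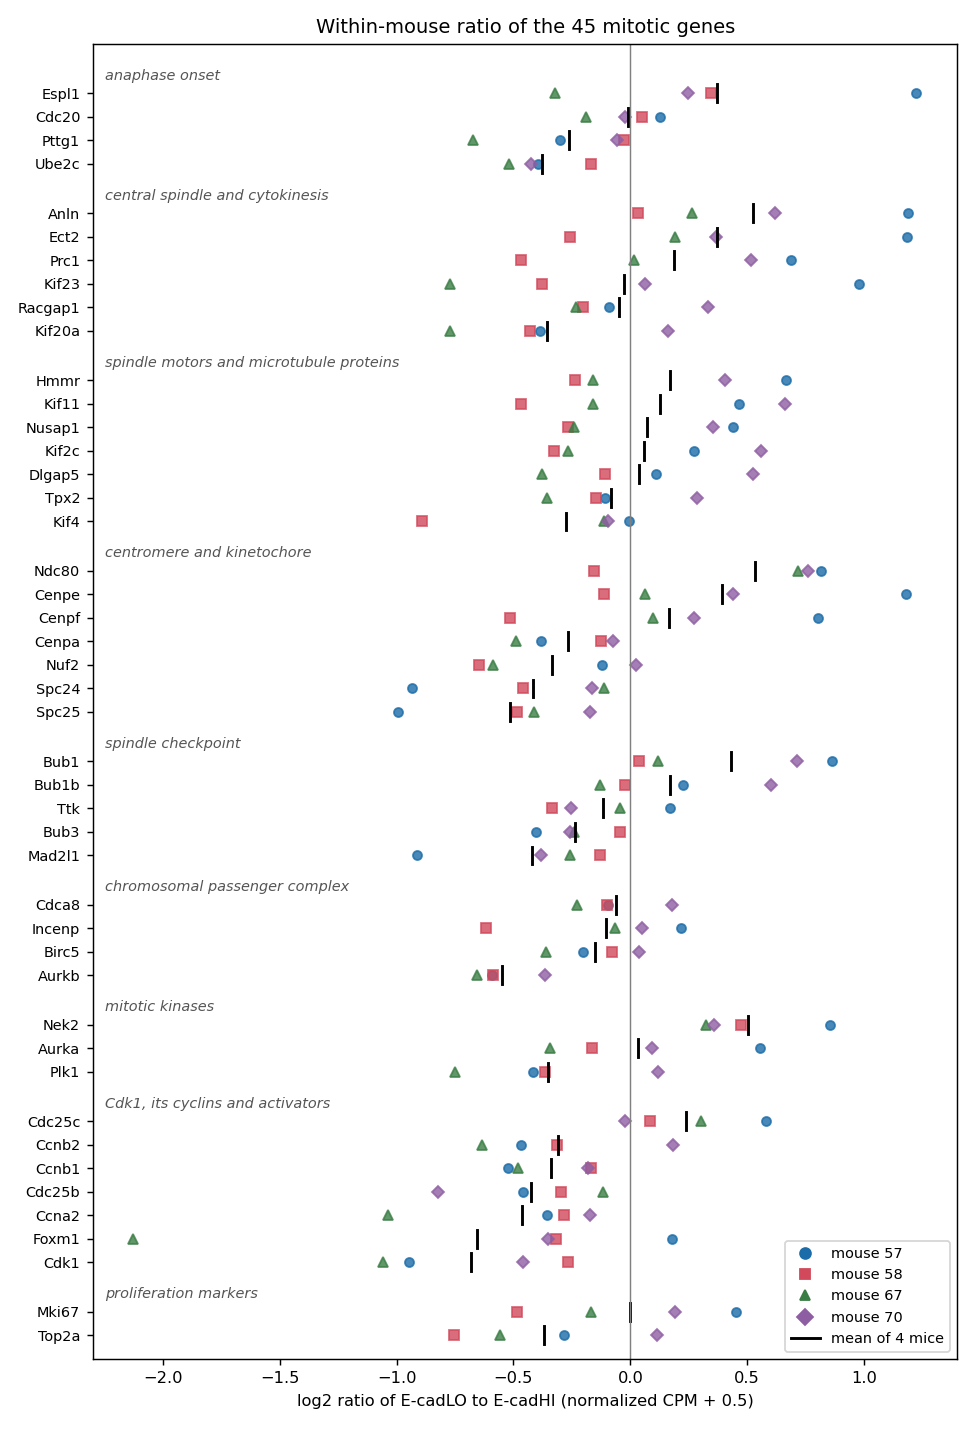
Log2 ratio of E-cadLO to E-cadHI (normalized CPM + 0.5, horizontal axis) for each of the 45 mitotic genes, grouped by role, with 1 symbol per mouse and a black bar for the mean of the 4 mice. Cdk1 and Aurkb lie left of 0 in 4 of 4 mice and Nek2, Bub1 and Anln right of 0 under this TMM scaling (epithelial scaling moves all genes of a mouse together), while for 29 genes the mice fall on both sides. Of all tested genes, 16.8% were higher and 14.2% lower in 4 of 4 mice, so most also fall on both sides.

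Many G2/M genes share promoter elements, the CHR element read by the DREAM and B-Myb-FoxM1 complexes and the CCAAT box read by NF-Y, so the sequence before the start site was taken for genes of the Cdk1 engine and common proliferation markers. The 250 bases upstream of the RefSeq start (GRCm38.p6) are printed 5′ to 3′ on the strand of the gene, with matches to CHR (TTTGAA or TTCGAA) and CCAAT in capitals, both strands searched, so that TTCAAA and ATTGG mark matches on the other strand. They lie at chr10:69352913-69353162 (Cdk1, minus strand), chr13:100786487-100786736 (Ccnb1, minus strand), chr9:70421555-70421804 (Ccnb2, minus strand), chr7:122159185-122159434 (Plk1, plus strand), chr11:117848987-117849236 (Birc5, plus strand) and chr11:99024190-99024439 (Top2a, minus strand).
Cdk1: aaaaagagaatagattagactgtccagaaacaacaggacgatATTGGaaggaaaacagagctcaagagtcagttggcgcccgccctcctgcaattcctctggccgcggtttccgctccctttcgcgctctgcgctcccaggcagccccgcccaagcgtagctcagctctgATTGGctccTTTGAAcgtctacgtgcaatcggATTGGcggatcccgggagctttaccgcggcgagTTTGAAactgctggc
Ccnb1: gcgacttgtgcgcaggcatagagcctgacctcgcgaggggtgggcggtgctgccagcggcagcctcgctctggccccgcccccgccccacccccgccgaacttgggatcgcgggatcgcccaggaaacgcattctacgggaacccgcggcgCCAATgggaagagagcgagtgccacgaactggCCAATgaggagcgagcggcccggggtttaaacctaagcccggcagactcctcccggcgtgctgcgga
Ccnb2: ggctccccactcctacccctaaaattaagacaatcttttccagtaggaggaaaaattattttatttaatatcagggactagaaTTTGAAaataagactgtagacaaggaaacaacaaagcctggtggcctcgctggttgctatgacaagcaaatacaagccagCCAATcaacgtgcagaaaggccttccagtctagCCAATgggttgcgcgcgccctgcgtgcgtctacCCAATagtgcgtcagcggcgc
Plk1: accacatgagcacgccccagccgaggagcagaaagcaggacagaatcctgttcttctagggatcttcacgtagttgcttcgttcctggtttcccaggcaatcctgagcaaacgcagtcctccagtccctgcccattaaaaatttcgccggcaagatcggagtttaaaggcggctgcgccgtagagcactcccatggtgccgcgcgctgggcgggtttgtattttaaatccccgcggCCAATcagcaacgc
Birc5: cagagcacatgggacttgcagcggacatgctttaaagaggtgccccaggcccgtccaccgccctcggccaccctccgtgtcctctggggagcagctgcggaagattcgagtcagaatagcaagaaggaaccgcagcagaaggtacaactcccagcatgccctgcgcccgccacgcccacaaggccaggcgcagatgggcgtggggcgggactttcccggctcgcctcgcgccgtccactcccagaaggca
Top2a: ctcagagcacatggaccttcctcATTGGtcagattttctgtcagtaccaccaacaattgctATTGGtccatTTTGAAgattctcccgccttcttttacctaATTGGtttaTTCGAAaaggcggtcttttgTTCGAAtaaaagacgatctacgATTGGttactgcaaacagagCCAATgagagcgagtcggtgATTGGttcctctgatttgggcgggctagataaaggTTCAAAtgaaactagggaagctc
The Cdk1 stretch holds 2 CHR and 3 CCAAT matches and that of Top2a 4 and 6. Ccnb1 shows 2 CCAAT matches without a CHR match, Ccnb2 shows 1 CHR and 3 CCAAT matches, and Birc5 shows neither. Plk1 shows 1 CCAAT match, and its CHR match begins 31 bases after the start, outside the printed stretch. Ccnb2 has a further CHR match that begins 5 bases after the start, also outside the printed stretch.

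Over the 300-base windows of the RefSeq table (250 bases before to 50 after the start), 36 of the 45 members had an entry. A CHR match was found for 28 of the 36 (77.8%), beside 21.7% of the 27025 genes of that table found in the count table, and a CCAAT match also for 28 (77.8%), beside 41.1%. Both were found for 25 members (69.4%) and for 8.61% of all genes. Genes on either side of the comparison carried the CHR match: 7 of 10 with an entry among those lower in 4 of 4 mice, 2 of 3 among those higher in 4 of 4 mice, and 19 of 23 among the others. Such a match describes the letters in the window and does not show that a factor binds there.

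The values now follow by role, beginning with Cdk1 and its regulators, the engine of mitotic entry. Of these 7 genes 6 had a log2 fold change below 0, and the median was -0.42, or -0.21 under epithelial scaling. Under TMM 4 were lower in E-cadLO cells in 4 of 4 mice, beside 14.2% of all tested genes. Of these 4 only Cdk1 was still lower in 4 of 4 mice under epithelial scaling. Cdk1, the mitotic kinase itself (chromosome 10, 69336635 to 69352938, GRCm38), had 165, 145, 194 and 152 CPM in the E-cadHI libraries of mice 57, 58, 67 and 70 and 85.0, 120.1, 93.0 and 111 CPM in their E-cadLO libraries. All 4 E-cadLO libraries lay below the lowest E-cadHI library. The group means were 164 ± 21.7 and 102 ± 16.0 CPM (SD, n = 4), a log2 fold change of -0.68 (standard error 0.17), which missed the threshold in edgeR (adjusted p = 0.253) and with the replicate block (adjusted p = 0.143) and passed it only in DESeq2, as given above. Ccnb1, the main cyclin partner of Cdk1 (chromosome 13, 100778650 to 100786570), had 151, 133, 164 and 128 CPM in E-cadHI and 105, 118, 118 and 113 CPM in E-cadLO libraries. Here too the groups did not overlap, and its log2 fold change was -0.35 (standard error 0.14, edgeR adjusted p = 0.330). Ccnb2, the second B-type cyclin (chromosome 9, 70407692 to 70421547), was the most abundant of this group per kilobase of exon, at 131 CPM per kb over all libraries. Its level was 265, 212, 237 and 175 CPM in E-cadHI and 191, 171, 153 and 199 CPM in E-cadLO libraries, and mouse 70 went against the others. Its log2 fold change was -0.32 (standard error 0.17, edgeR adjusted p = 0.417), or -0.21 without mouse 67. Foxm1, the transcription factor that switches on G2/M genes (chromosome 6, 128362967 to 128376146), was scarce, with 13.8, 17.8, 14.9 and 12.4 CPM in E-cadHI and 15.7, 14.1, 3.02 and 9.62 CPM in E-cadLO libraries. The E-cadLO library of mouse 67 stood far below the other 7, and the log2 fold change of -0.47 had a standard error of 0.45 (edgeR adjusted p = 0.610) and was -0.14 without mouse 67 and -0.78 without mouse 57. The remaining 3 genes were Ccna2, the S and G2 cyclin, with a log2 fold change of -0.44, and the activating phosphatases Cdc25b with -0.42 and Cdc25c with 0.27.

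**Figure D2:**
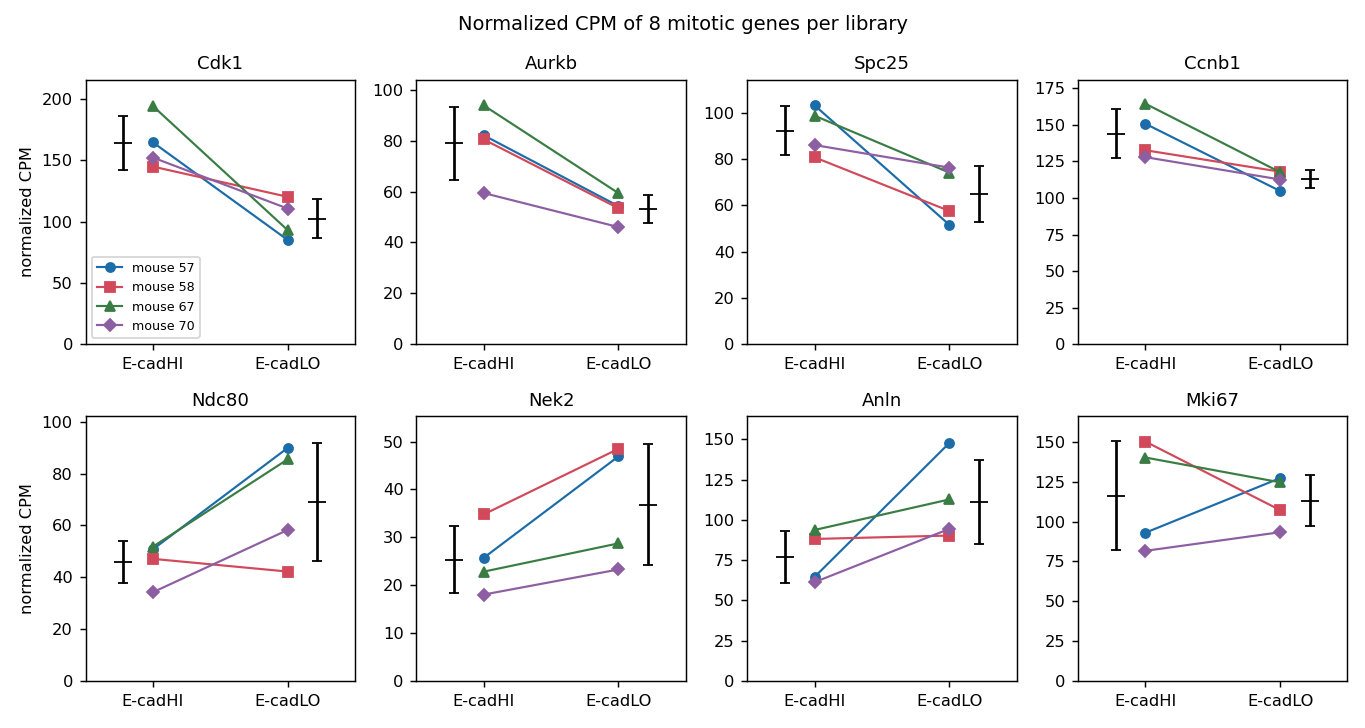
Normalized CPM (vertical axes, from 0) of 8 mitotic genes in the E-cadHI and E-cadLO libraries of each mouse, with lines joining the libraries of a mouse and bars for the mean ± SD of each group (n = 4). For Cdk1, Aurkb, Spc25 and Ccnb1 every E-cadLO library lies below every E-cadHI library, whereas for Ndc80, Nek2, Anln and Mki67 the groups overlap. These are TMM values, under which 4.2% of all tested genes had every E-cadLO library below every E-cadHI library. Epithelial scaling moves all genes of a mouse together.

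The proliferation markers did not follow Cdk1 in every mouse. Mki67, which encodes the Ki-67 protein of cycling cells (chromosome 7, 135689784 to 135716361), had 93.0, 150.3, 140.3 and 81.7 CPM in E-cadHI and 127, 107, 125 and 93.4 CPM in E-cadLO libraries. It was higher in E-cadLO cells of mice 57 and 70 and lower in those of mice 58 and 67, with means of 116 ± 34.0 and 113 ± 15.9 CPM (SD, n = 4). Its log2 fold change of -0.04 (standard error 0.22, edgeR adjusted p = 0.940) was 0.084 under epithelial scaling. Top2a, the topoisomerase that untangles sister chromatids (chromosome 11, 98992943 to 99024189), had 164, 223, 239 and 139 CPM in E-cadHI and 134, 132, 163 and 151 CPM in E-cadLO libraries. It was lower in E-cadLO cells of 3 mice and higher in those of mouse 70, and its log2 fold change was -0.40 (standard error 0.20, edgeR adjusted p = 0.387), or -0.27 without mouse 58.

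Of the free mitotic kinases, Plk1, which matures centrosomes and activates Cdc25 (chromosome 7, 122159439 to 122169873), had 142, 147, 145 and 94.6 CPM in E-cadHI and 106, 114, 86.2 and 103 CPM in E-cadLO libraries. Mouse 70 stood apart in E-cadHI, and the log2 fold change was -0.37 (standard error 0.18, edgeR adjusted p = 0.384), or -0.24 without mouse 67. Nek2, which splits the centrosomes before spindle assembly (chromosome 1, 191821444 to 191833050), went the other way, with 25.7, 34.8, 22.8 and 18.0 CPM in E-cadHI and 46.9, 48.5, 28.7 and 23.3 CPM in E-cadLO libraries. It was higher in E-cadLO cells of 4 of 4 mice, although the groups overlapped because the mice differed in level. Its log2 fold change was 0.54 (standard error 0.30, edgeR adjusted p = 0.429, and 0.212 with the replicate block). Aurka, the centrosomal Aurora kinase, had a log2 fold change of 0.07 with ratios of both signs among the mice.

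All 4 genes of the chromosomal passenger complex, which corrects faulty kinetochore attachments and guides cytokinesis, had log2 fold changes below 0 (median -0.15). Its kinase Aurkb (chromosome 11, 69045647 to 69051664) had 82.1, 80.5, 93.9 and 59.4 CPM in E-cadHI and 54.3, 53.5, 59.4 and 46.1 CPM in E-cadLO libraries. Every E-cadLO library lay below every E-cadHI library, narrowly so between mouse 70 in E-cadHI and mouse 67 in E-cadLO. The within-mouse log2 ratios were -0.59, -0.59, -0.66 and -0.36 in mice 57, 58, 67 and 70, and the log2 fold change was -0.57 (standard error 0.17, edgeR adjusted p = 0.284, and 0.144 with the replicate block). Birc5, or survivin, which brings the complex to centromeres (chromosome 11, 117849251 to 117855743), was among the most abundant members per kilobase, at 149 CPM per kb. It had 515, 494, 636 and 499 CPM in E-cadHI and 448, 467, 495 and 512 CPM in E-cadLO libraries, so the groups overlapped, and its log2 fold change was -0.16 (standard error 0.15, edgeR adjusted p = 0.615), or -0.070 without mouse 67. The scaffold Incenp and the targeting subunit Cdca8, or borealin, had log2 fold changes of -0.13 and -0.07, the latter 0.091 under epithelial scaling.

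The spindle checkpoint genes were split around a median of -0.10, which was 0.077 under epithelial scaling. Bub3, which docks the Bub kinases on kinetochores (chromosome 7, 131560222 to 131571895), had 336, 221, 319 and 348 CPM in E-cadHI and 254, 215, 270.4 and 291 CPM in E-cadLO libraries. It was lower in E-cadLO cells in 4 of 4 mice, by little in mouse 58, and its log2 fold change was -0.25 (standard error 0.18, edgeR adjusted p = 0.524). Mad2l1, the checkpoint protein that holds Cdc20 in check, had a log2 fold change of -0.40 and non-overlapping groups, 82.3 to 87.2 CPM in E-cadHI and 46.1 to 77.1 CPM in E-cadLO libraries. The kinase Bub1 had a log2 fold change of 0.41 and was higher in E-cadLO cells in 4 of 4 mice, while the pseudokinase Bub1b (0.13) and the kinase Ttk (-0.10, and 0.077 under epithelial scaling) had ratios of both signs.

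The kinetochore genes held both the largest positive and some of the most negative values, within the same complex. Ndc80, Nuf2, Spc24 and Spc25 are the subunits of the NDC80 complex, the microtubule grip of the kinetochore. Spc24 (chromosome 9, 21755442 to 21760303) had 75.1, 73.2, 77.3 and 72.7 CPM in E-cadHI and 39.0, 53.1, 71.5 and 64.8 CPM in E-cadLO libraries. The E-cadHI libraries were nearly equal and all E-cadLO libraries lay below them, and its log2 fold change was -0.38 (standard error 0.19, edgeR adjusted p = 0.395). Spc25 (chromosome 2, 69193895 to 69206194) had 103, 80.7, 98.6 and 86.0 CPM in E-cadHI and 51.6, 57.5, 74.1 and 76.2 CPM in E-cadLO libraries, again without overlap. Its log2 fold change was -0.51 (standard error 0.18, edgeR adjusted p = 0.302). Ndc80 itself (chromosome 17, 71496100 to 71526857) had 50.8, 47.1, 51.8 and 34.2 CPM in E-cadHI and 89.9, 42.2, 85.5 and 58.3 CPM in E-cadLO libraries. It was higher in E-cadLO cells of mice 57, 67 and 70 and not in mouse 58, and its log2 fold change was 0.59 (standard error 0.26, edgeR adjusted p = 0.356). Nuf2, the partner of Ndc80 in the microtubule-binding head, had a log2 fold change of -0.31. Among the others, the centromeric histone Cenpa had -0.27, the kinetochore motor Cenpe 0.42 and the large coiled-coil protein Cenpf 0.15.

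Spindle motors and microtubule proteins lay near 0 on the log2 fold change scale, from -0.26 to 0.16 with a median of 0.06 over 7 genes, and their sign followed the mouse. All 7 were lower in E-cadLO cells of mouse 58 and of mouse 67, while 6 were higher in mouse 70 and 5 in mouse 57. Tpx2, which nucleates spindle microtubules and activates Aurka (chromosome 2, 152847964 to 152895321), had 169.6, 140.3, 185 and 107 CPM in E-cadHI and 157, 127, 144 and 130.2 CPM in E-cadLO libraries. Its log2 fold change was -0.11 (standard error 0.19, edgeR adjusted p = 0.792), and it changed sign without mouse 67 (0.01) and when libraries were scaled to epithelial markers (0.07), though not when the replicate block was added to that scaling (-0.0068). Kif11, the motor that pushes the poles apart, had a log2 fold change of 0.08, the microtubule depolymerase Kif2c 0.06, the microtubule binders Nusap1 0.06, Hmmr 0.16 and Dlgap5 0.02, and the chromokinesin Kif4 -0.26.

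In the cytokinesis group, 4 of 6 genes had a log2 fold change above 0 (median 0.14). Anln, or anillin, the scaffold of the contractile ring (chromosome 9, 22332012 to 22389188), had 64.5, 88.1, 93.7 and 61.3 CPM in E-cadHI and 148, 90.2, 113 and 94.3 CPM in E-cadLO libraries. It was higher in E-cadLO cells in 4 of 4 mice, barely so in mouse 58, and its log2 fold change was 0.53 (standard error 0.22, edgeR adjusted p = 0.330), or 0.27 without mouse 57. Ect2, the exchange factor that activates RhoA at the cell equator (chromosome 3, 27097222 to 27153878), had 75.9, 88.3, 101 and 54.3 CPM in E-cadHI and 173, 73.8, 116 and 70.1 CPM in E-cadLO libraries. Its log2 fold change of 0.44 (standard error 0.31, edgeR adjusted p = 0.515) was 0.068 without mouse 57, where the log2 ratio was 1.18. Kif20a, the motor that carries passenger proteins to the central spindle (chromosome 18, 34624624 to 34633265), had 193, 173, 191 and 119.8 CPM in E-cadHI and 147, 129, 112 and 134 CPM in E-cadLO libraries, and its log2 fold change was -0.38 (standard error 0.18, edgeR adjusted p = 0.386), or -0.23 without mouse 67. The bundler Prc1 (0.21) and the centralspindlin subunits Kif23 (0.07) and Racgap1 (-0.07, and 0.088 under epithelial scaling) had ratios of both signs.

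The 4 genes of anaphase onset had a median log2 fold change of -0.14, which was 0.048 under epithelial scaling. Cdc20, the APC/C activator (chromosome 4, 118432901 to 118437352), was the most abundant member per kilobase, at 156 CPM per kb. It had 307, 254, 318 and 287 CPM in E-cadHI and 335, 263, 278 and 282 CPM in E-cadLO libraries, a log2 fold change of -0.01 (standard error 0.15, edgeR adjusted p = 0.985) that was 0.18 under epithelial scaling. Ube2c, the ubiquitin-conjugating enzyme of the APC/C, had 148 to 170.2 CPM in E-cadHI and 112 to 134 CPM in E-cadLO libraries without overlap, and a log2 fold change of -0.38 (standard error 0.13, edgeR adjusted p = 0.303). Securin, encoded by Pttg1, had a log2 fold change of -0.26 and separase, encoded by Espl1, one of 0.40 at the lowest level of all members, 1.28 CPM per kb.

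Ratios of 2 mitotic genes within the same library do not depend on how libraries are scaled. Ratios for 8 pairs of related genes were computed after the values above had been seen, so they are given as a description. The Ndc80 to Spc25 ratio was 0.493, 0.584, 0.525 and 0.398 in E-cadHI cells of mice 57, 58, 67 and 70 and 1.74, 0.734, 1.15 and 0.764 in E-cadLO cells, so every E-cadLO library lay above every E-cadHI library. The Ndc80 to Spc24 ratio was 0.471 to 0.676 in E-cadHI and 0.795 to 2.30 in E-cadLO libraries, also without overlap. The Aurka to Aurkb ratio was 1.46, 1.26, 1.48 and 1.67 in E-cadHI cells and 3.24, 1.69, 1.84 and 2.31 in E-cadLO cells, where the lowest E-cadLO value barely cleared the highest E-cadHI value. The Ccnb1 to Cdk1 ratio was 0.841 to 0.916 in E-cadHI and 0.982 to 1.26 in E-cadLO libraries, and it was higher in E-cadLO cells in 4 of 4 mice. The Nuf2 to Spc25, Bub1 to Bub3, Prc1 to Kif20a and Nek2 to Plk1 ratios overlapped between the groups. Of all 990 pairs of members, 119 (12.02%) had ratios that did not overlap between the groups, beside 8.08% of the 81530065 pairs among the 12770 tested genes with reads in every library. Pairs that share a gene are not independent, and the difference between these shares was not tested.

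**Figure D3:**
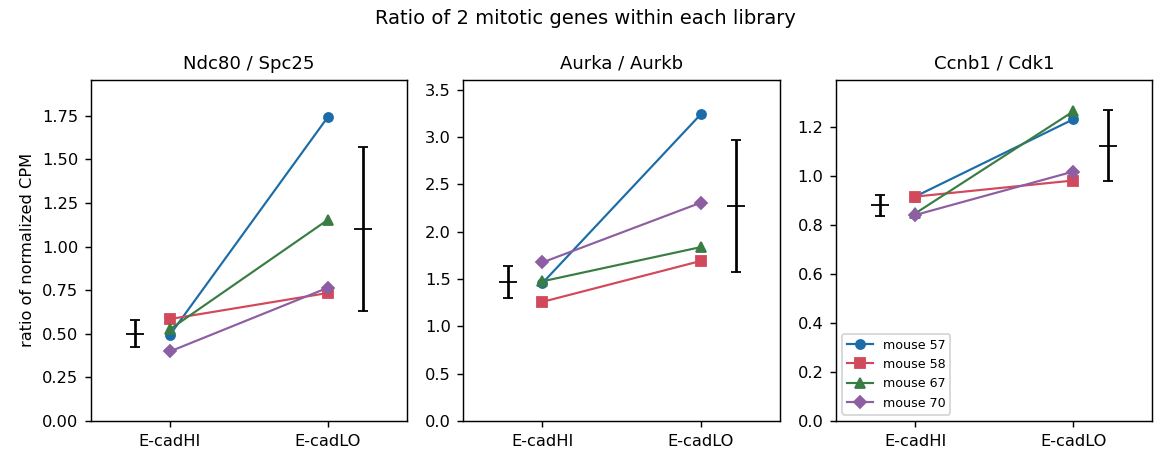
Ratio of normalized CPM of 2 mitotic genes (vertical axes, from 0) within each library, with lines joining the libraries of a mouse and bars for the mean ± SD of each group (n = 4). For Ndc80 to Spc25 the E-cadHI libraries lie between 0.398 and 0.584 and the E-cadLO libraries between 0.734 and 1.74, and the other pairs are likewise separated. These pairs were picked for their separation from 8 pairs computed, of which 4 overlapped.

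The log2 fold change of the members also moved with the length of the gene. The 15 members with the shortest summed exons (1531 to 4275 bases) had a median log2 fold change of -0.35, with 12 of 15 below 0 and 8 lower in E-cadLO cells in 4 of 4 mice. The 15 longest (6341 to 15433 bases) had a median of 0.07, with 9 of 15 above 0 and 2 lower in 4 of 4 mice, and the 15 in between a median of -0.10. The counts in 4 of 4 mice are under TMM and stand beside 14.2% of all tested genes lower, a share not split by length. Under epithelial scaling 2 of the 45 members were lower in 4 of 4 mice. Across the 45 members, Spearman's rho between exon length and log2 fold change was 0.38, and with the within-mouse ratio it was 0.48, -0.07, 0.28 and 0.33 in mice 57, 58, 67 and 70. Across 13582 tested genes with a length, rho was 0.16, and by mouse 0.22, -0.09, 0.10 and 0.11, so the order of the mice was shared. These points are genes measured in the same libraries, with shared depth and normalization, and are not independent. For GC content, rho across members was -0.28, and by mouse -0.24, 0.08, -0.28 and -0.28 in mice 57, 58, 67 and 70. Across the 13582 tested genes it was 0.0049. The part of length in the fold changes was not tested.

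**Figure D4:**
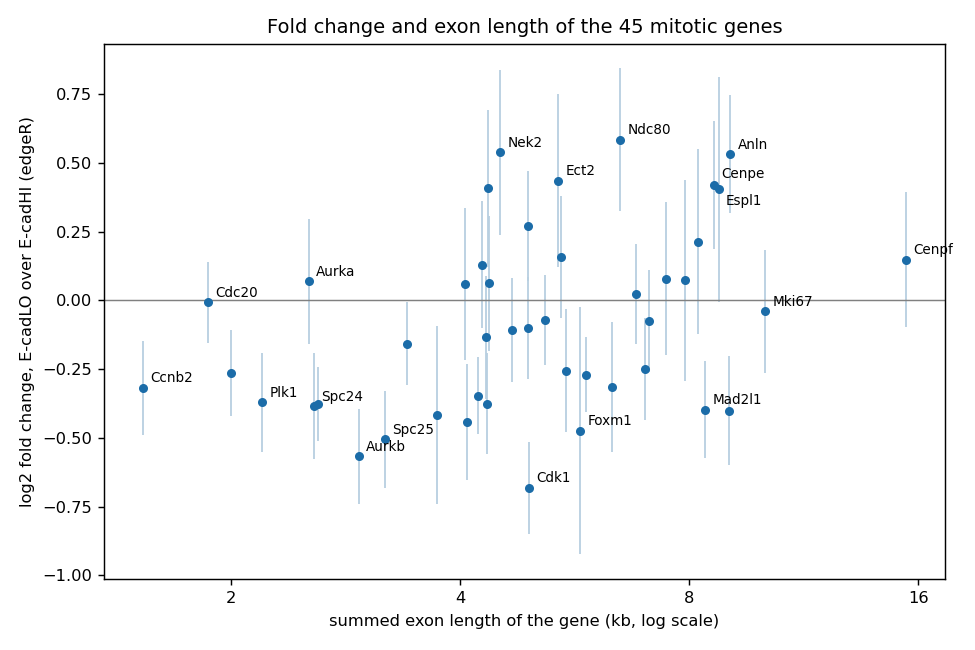
Log2 fold change of E-cadLO over E-cadHI (edgeR, vertical axis, bars are the standard error) against the summed exon length of each of the 45 mitotic genes (kb, log axis). Short genes such as Spc25 and Aurkb lie mostly below 0 and long genes such as Anln and Cenpe mostly above, with Cdk1, Mad2l1 and Nek2 off this trend.

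Other genes of mitosis and the cell cycle were compared from lists written from general knowledge, and 0 of their genes passed the adjusted threshold in edgeR with or without the replicate block. The counts below stand beside 8.16% of all tested genes higher and 5.81% lower at an unadjusted p under 0.05 in edgeR. In 4 of 4 mice, 16.8% of all tested genes were higher and 14.2% lower. Of 14 tested genes of mitotic entry control, 3 were lower and 0 higher at an unadjusted p under 0.05, and the median log2 fold change was 0.16. The 3 were the mitotic kinase Pbk (-0.77, standard error 0.21), the Cdk1 accessory subunit Cks1b (-0.38, 0.14) and cyclin F, encoded by Ccnf (-0.64, 0.26). Among 20 other spindle and motor genes, 2 were lower (Knstrn and Kif22) and 0 higher, with a median of -0.08 that was 0.093 under epithelial scaling. Among 30 other kinetochore and checkpoint genes the median was 0.10, with 4 higher and 2 lower. Mis12 (0.75, standard error 0.22) and Dsn1 (1.04, 0.34), which encode subunits of the complex that anchors NDC80 to the centromere, were higher in 4 of 4 mice, and the centromere gene Cenpm (-0.73, 0.24) was lower in 4 of 4.

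The 8 tested cytokinesis genes outside the members had a median log2 fold change of 0.21 and the 17 condensin and cohesin genes one of -0.02 (0.14 under epithelial scaling), with 0 higher and 0 lower at an unadjusted p under 0.05 in both. Of 17 APC/C subunits and partners 12 were below 0 (median -0.21, or -0.03 under epithelial scaling), and 0 passed an unadjusted p under 0.05. The 22 cell-cycle transcription regulators had a median of 0.06, with 3 higher (E2f2, Tfdp2 and E2f5) and 0 lower. DNA replication genes, which act in S phase, had log2 fold changes below 0 for 26 of 30, with a median of -0.34, or -0.19 under epithelial scaling. At an unadjusted p under 0.05, 9 were lower, beside 5.81% of all tested genes, and 0 higher, beside 8.16%. Under TMM 11 were lower in 4 of 4 mice, beside 14.2% of all tested genes, and this was not counted under epithelial scaling. Rrm1, the large subunit of ribonucleotide reductase, had 356 ± 52.2 CPM in E-cadHI and 253 ± 7.76 CPM in E-cadLO libraries (SD, n = 4), a log2 fold change of -0.50 (standard error 0.15, edgeR adjusted p = 0.287). The plot of list medians by mouse under TMM shows that the sign of the mitotic, kinetochore, cytokinesis and cohesin lists differed between mice. The APC/C list was below 0 in each mouse under TMM. The epithelial marker list had medians of -0.76, 0.36, -0.02 and -0.39 in mice 57, 58, 67 and 70, positive in mouse 58 where the mitotic median was negative, negative in mice 57 and 70 where it was positive, and below 0 in mouse 67 like the mitotic median.

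**Figure D5:**
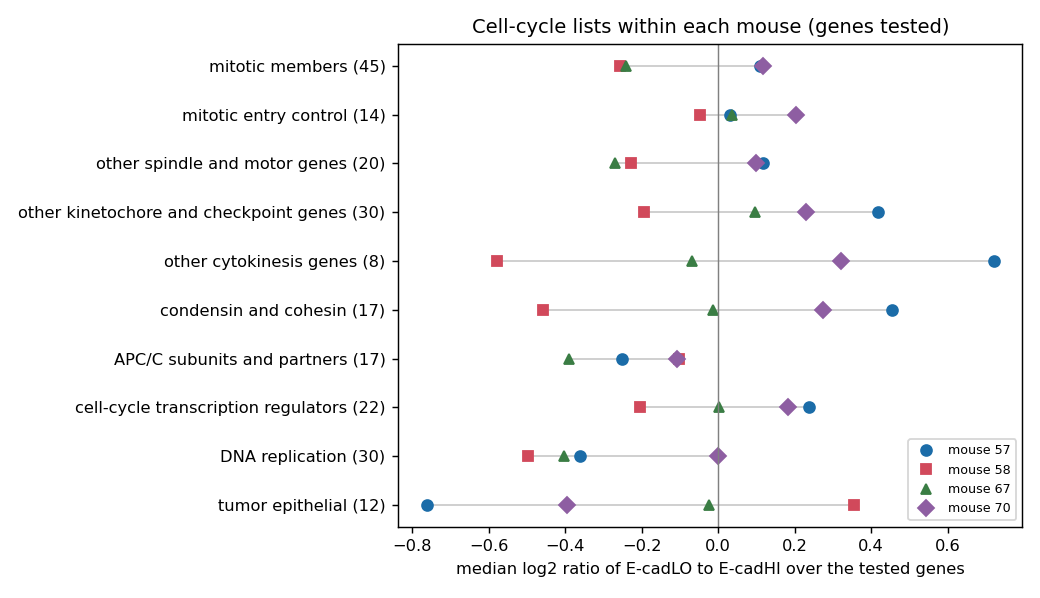
Median log2 ratio of E-cadLO to E-cadHI (horizontal axis) of each gene list in each mouse, with the number of genes tested in brackets, 1 symbol per mouse and a grey line for the range over the 4 mice. The 45 mitotic members lie at -0.26 and -0.24 in mice 58 and 67 and at 0.11 and 0.12 in mice 57 and 70, and the DNA replication list is at or below 0 in all of them. These TMM values move with the scaling, to 0.97 for the mitotic members in mouse 57 under epithelial scaling.

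Reads of 24 of the 45 members could include those of another annotated gene that overlaps them, such as Fgfr2 for Bub3, Cdc23 for Kif20a and Elovl1 for Cdc20, since the use of strand in counting is not given in the sources used here. Pseudogenes named after Ccnb1, Ccnb2 and Kif4 are annotated, and their reads could have been split from those of the gene.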

How the data were processed

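Bulk mRNA of E-cadHI and E-cadLO cells from 4 mice was read as 8 libraries. The authors mapped single reads to GRCm38 with HISAT2 2.1.0 and deposited whole-number counts per gene without normalization. The methods name Icount and the submitters' processing notes HTSeq for the counting, and the handling of reads that match several genes is not given in the sources used here. Of 32259 entries, 365 without a gene identifier (0.0636% to 0.0954% of counts) were left out. Counts were fitted with edgeR 4.0.16 (R 4.3.3, limma 3.58.1) using TMM, filterByExpr by group and the quasi-likelihood test on 8 libraries, with Benjamini-Hochberg adjustment over 13598 genes and a threshold of 0.05. The standard error is the log2 fold change divided by the root of the test's F. Within-mouse ratios used CPM + 0.5. Python 3.11.15, pandas 2.3.3, scipy 1.17.1 and matplotlib 3.10.9 made the tables and figures, and exon lengths are from GENCODE M21. The steps were tested on simulated data with larger changes than those of the members. That test does not show whether changes of the members' size would be called.

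The populations of a mouse come from the same animal, which pairs them. Deviations from the group means correlated at 0.275 to 0.698 within the 4 same-mouse pairs and at -0.516 to 0.153 within the 12 others. Because each group is centered on its own mean, high values in the same-mouse pairs push the others down, so the 2 ranges are not independent. The study's methods name DESeq2 for differential expression and no block. DESeq2 without the block is therefore the alternative nearest to the study's own test, and it called Cdk1 lower (adjusted p = 0.0200). The edgeR fit without the block is the main design here. Its standard errors, which are those quoted for the genes, do not set aside differences in level between mice. With the block, the standard error of Nek2 was 0.19 in place of 0.30, and that of Cdk1 was 0.18 in place of 0.17. Alternatives were the replicate block, DESeq2 1.42.0 with and without it, DESeq2 size factors, scaling to 12 tumor epithelial markers, no filter, at least 10 counts in every library, a pseudocount of 2 CPM and each mouse left out. No libraries were copies of each other (chi-square over degrees of freedom at least 27.7). An exact sign-flip test of 4 pairs could not go below 0.125 and was not used.

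The members and lists were chosen with earlier results of these data known. Full values are given for the most abundant member per kilobase of each role, the markers Mki67, Top2a, Ccnb1, Cdk1, Plk1, Aurkb, Birc5 and Cdc20, and the 4 largest and 4 smallest log2 fold changes. Of the other lists, at most 3 genes with the smallest p are named. Other members are named with fewer values, after these were seen.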

Additional observations from a re-analysis of the deposited data

Results flagged for a closer look

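In 3 of the 64 groups of 4 values examined for the named genes, 1 value lay far from the other 3 by Dixon's criterion, which marks about 1 in 20 groups by chance (3.2 of 64). The Plk1 level of the E-cadHI library of mouse 70 was 94.6 CPM, below the other E-cadHI libraries (142 to 147 CPM). The Birc5 level of the E-cadHI library of mouse 67 was 636 CPM, above the other E-cadHI libraries (494 to 515 CPM). The within-mouse log2 ratio of Ndc80 was -0.16 in mouse 58 and 0.72 to 0.82 in the other mice. The mouse 70 library was also the lowest E-cadHI library for 33 of the 45 members and held the highest oligodendrocyte marker sum of its group, 8631 CPM, and the part of this in its mitotic values was not tested.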

How the results depend on the processing

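With 4 mice, a p above the threshold does not show that the groups were equal. No mitotic gene was called higher under any alternative run. The number called lower was 0 in edgeR, with the replicate block also 0, and was 1 in DESeq2 and 2 in DESeq2 with the replicate block. The Cdk1 adjusted p ranged from 0.0200 to 0.680 and that of Aurkb from 0.0363 to 0.792 over all alternatives. The median log2 fold change of the members was -0.10, -0.08 with the replicate block, and -0.22 to 0.01 with each mouse left out (lowest without mouse 57, where 9 of 45 were above 0, and highest without mouse 67), with 0 members called each time.

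Scaling to epithelial markers raised the median of all genes by 0.13 and that of the members to 0.08 (24 above 0), which relative to all genes is -0.12 in place of -0.16, and with the block added the median of the members was -0.0068. It moved the median within-mouse ratio to 0.97, -0.54, -0.71 and 0.30 in mice 57, 58, 67 and 70, and the list medians of mitotic entry control to 0.33 and of the APC/C to -0.03. The near-zero genes Tpx2, Cdc20 and Mki67 turned sign. Tpx2 was 0.069 under this scaling, -0.0068 with the block added, and -0.20 to 0.021 with a mouse left out (0.0067 and 0.021 without mouse 67, without and with the block). Cdc20 was 0.18 under it, 0.063 with the block added, 0.018 in DESeq2, 0.017 with its size factors, 0.015 in DESeq2 with the block and 0.053 with at least 10 counts in every library, and -0.083 to 0.073 with a mouse left out (0.073 and 0.064 without mouse 67, 0.010 and 0.0072 without mouse 70). Mki67 was 0.084 and 0.062 under this scaling without and with the block, 0.020 in DESeq2 with the block and 0.018 with at least 10 counts, and -0.22 to 0.17 with a mouse left out (0.15 and 0.17 without mouse 58, 0.032 and 0.066 without mouse 67). The causes were not tested. For the named genes, 138 values across settings kept direction and call, 11 changed sign and 3 kept direction but passed the threshold. With a mouse left out, 142 kept direction and call and 10 changed sign. The replicate block changed no call of a member in edgeR.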
